A study of Saccharomyces cerevisiae with 7 samples.

Results

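The sites described here are the called CLIP sites of 5 yeast Puf proteins that the authors classed as lying in the 5' untranslated region (5' UTR) of an mRNA. They were taken by class alone, as every site classed as 5' UTR or predicted 5' UTR in the 5 deposited lists, and numbered 464 of 10580 called sites. Of these, 454 were classed as 5' UTR and 10 as predicted 5' UTR. CLIP (crosslinking and immunoprecipitation) sequences the RNA pieces that stay attached to a tagged protein after ultraviolet light. The libraries came from *Saccharomyces cerevisiae* of mating type a with the mutant markers his3Δ1, leu2Δ0, met15Δ0 and ura3Δ0, and each strain had a TAP tag on 1 Puf gene, marked with HIS5. Each of the proteins Puf1, Puf2, Puf4, Puf5 and Puf6 was represented by 1 library, so no difference between proteins had a replicate check and none was tested. Cultures grew at 30 °C in synthetic defined medium, with 200 µM 4-thiouracil where the protocol called for it, and were exposed 4 times to 150 mJ/cm2 of 365 nm ultraviolet. Levels of mRNA came from 2 BY4742 samples labelled as deleted for PUF3, which the authors joined into 1 column. No untagged library was used here, so a background level was not measured. The base of all called sites includes 810 rows with no feature class.

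Puf proteins bind short elements in mRNA through a repeat domain and are best known for acting from the 3' UTR, where they recruit enzymes that shorten the poly(A) tail. The 5' UTR is the stretch that the small ribosomal subunit scans on its way to the start codon. Puf1 and Puf2 are known for binding mRNAs of membrane proteins, and Puf6 is a mostly nucleolar protein. Site strength is given in RPM, the reads of a site scaled to library depth. RPM ranks sites within a library, and it was not put on 1 scale across libraries.

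Puf5 had the most 5' UTR sites and Puf6 the fewest. The count was 211 in Puf5, 94 in Puf2, 81 in Puf4, 45 in Puf1 and 33 in Puf6. As a share of all called sites this was 6.28% in Puf5 (exact Clopper-Pearson 95% interval 5.48 to 7.15). It was 5.01% in Puf1 (3.67 to 6.64) and 4.82% in Puf2 (3.91 to 5.87). In Puf4 it was 2.70% (2.15 to 3.34), and in Puf6 2.41% (1.66 to 3.37). The intervals of Puf4 and Puf6 lay below those of the other 3 libraries. The order changed with the base. Among mRNA sites alone, 5' UTRs took 10.3% in Puf1 (7.65 to 13.6), 9.32% in Puf5 (8.15 to 10.6), 9.11% in Puf2 (7.42 to 11.0), 7.53% in Puf6 (5.24 to 10.4) and 4.52% in Puf4 (3.61 to 5.59). On that base the interval of Puf6 overlapped those of all the others, while that of Puf4 still lay below Puf1, Puf2 and Puf5. By RPM, 5' UTR sites held 12.2% of the total for Puf1 and 11.4% for Puf2. They held 4.50% for Puf4, 4.26% for Puf5 and 0.341% for Puf6. Sites were short, from 18 to 41 nt with a median of 24 nt.

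In Puf1, Puf2 and Puf4, sites in 5' UTRs were stronger than sites in coding sequence, and in Puf5 and Puf6 the medians lay close together. The median 5' UTR site of Puf1 had 1680 RPM (distribution-free 95% interval of the median 1442 to 1990, 45 sites), against 342 RPM (230 to 429, 196 sites) in coding sequence and 1525 RPM (1411 to 1597, 194 sites) in 3' UTRs. In Puf2 the medians were 635 RPM (522 to 682) in 5' UTRs, 137 RPM (121 to 147) in coding sequence and 647 RPM (603 to 671) in 3' UTRs. In Puf4 the 5' UTR median of 279 RPM (152 to 654) lay between 102 RPM (93.5 to 108) in coding sequence and 625 RPM (560 to 716) in 3' UTRs. The median over coding sites was thus exceeded 4.91-fold in Puf1, 4.64-fold in Puf2 and 2.75-fold in Puf4. In Puf5 the 5' UTR median was 109 RPM (102 to 117), at 1.00 times that of coding sites and below the 128 RPM (124 to 132) of 3' UTR sites. In Puf6 it was 41.1 RPM (31.5 to 50.7), 1.07 times that of coding sites, and the intervals of its 3 classes overlapped. These intervals cover the spread of sites in 1 library, and sites of 1 gene are not independent. RPM is not scaled to mRNA level and the classes hold different genes, so level was not taken out of these medians. Among the 100 strongest mRNA sites of each library, 20 lay in 5' UTRs in Puf1, 22 in Puf2, 6 in Puf6, 5 in Puf4 and 4 in Puf5.

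**Figure D1:**
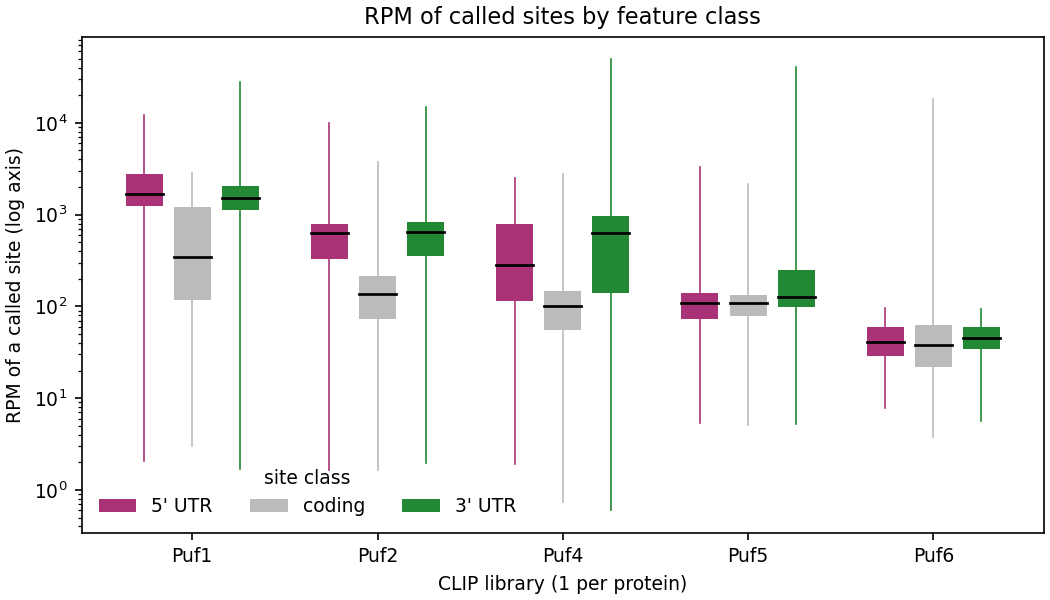
RPM of called sites (log axis) in 5' UTRs, coding sequence and 3' UTRs of the 5 libraries; boxes span the quartiles, black lines mark medians and thin lines reach the lowest and highest site. The 5' UTR boxes of Puf1 and Puf2 stand level with the 3' UTR boxes and above the coding boxes, while the 3 medians of Puf6 lie between 38.3 and 44.7 RPM.

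Puf1 was strongest in the 5' UTR of SOD1, the gene of cytosolic superoxide dismutase, which removes superoxide. That site had 12119.5 RPM, ranked 5 among all mRNA sites of the library, and lay at X:623012-623034 on the minus strand (sacCer3, positions as deposited). No other mRNA site of SOD1 was called in Puf1, and no other library had a site in its 5' UTR. TPO2, a polyamine exporter of the plasma membrane, followed with 8413 RPM, then ENO2, the glycolytic enzyme enolase, with 7476 RPM and MRH1, a plasma membrane protein, with 7312 RPM. CTS1, an endochitinase that separates daughter from mother cells, had 5781 RPM. The next were CCW12, a cell wall mannoprotein, with 4512 RPM, YRO2, a relative of MRH1, with 3234 RPM, and ERG11, an enzyme of ergosterol synthesis, with 3232 RPM. A site listed under YCR024C-B had 3021 RPM, and the proton pump gene PMA1 had 2857 RPM. The 5 strongest sites held 37.9% of the 5' UTR RPM of Puf1.

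Of these 10 genes, 7 were also among the 10 strongest of Puf2, which led with PMA1, the gene of the pump that moves protons out of the cell. Its 5' UTR held 3 sites in Puf2, the strongest with 9943 RPM at VII:482818-482838 on the minus strand, the third strongest mRNA site of the library. The others had 2545 RPM and 636 RPM, and the strongest site in the PMA1 3' UTR had 14973 RPM. The 9943 RPM site lay 103 nt after the stop codon of YGL007C-A on the same strand. TPO2 had 5 sites in Puf2, with 6837, 4942, 2921, 612 and 522 RPM. Together they came to 15834 RPM, and no coding or 3' UTR site of TPO2 was called in this library. YRO2 followed with 4218 RPM, then the YCR024C-B site with 4028 RPM, CTS1 with 3437 RPM, MRH1 with 3311 RPM and CCW12 with 2577 RPM. TPO3, a second polyamine exporter and paralog of TPO2, had 2074 and 1547 RPM. ZEO1, a membrane-associated protein, had 2008 RPM, and MFA2, a gene of the a-factor pheromone, had 1987 RPM.

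Puf4 had weaker 5' UTR sites, with its best at rank 45 among mRNA sites. PEP4, the vacuolar protease A, led with 2487 RPM at XVI:261027-261055 on the minus strand. CCW12 followed with 2408 RPM and ENO2 with 2215 RPM. MSO1, a secretion gene, had 1650 RPM and PET9, the main mitochondrial ADP/ATP carrier, had 1203 RPM. The metallothionein genes CUP1-1 and CUP1-2 each had 1041 RPM at sites of the same length; these are copies of 1 gene, so the same reads may have been placed at both. YDR338C had 1038 RPM, GPG1 997 RPM and AIM33 974 RPM. Puf4 also had 3 sites in the 5' UTR of its own gene, PUF4, with 919, 687 and 260 RPM. Their centres lay 267, 385.5 and 206 nt before the start codon, and no coding or 3' UTR site of PUF4 was called in that library. The tagged strain expresses this mRNA with the TAP tag, next to a HIS5 marker, which may change its 3' end. The lack of a called 3' UTR site of PUF4 therefore cannot be read in this library. None of the other 4 proteins had a site in the 5' UTR of its own gene, and PUF4 had none in the other libraries.

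Puf5 called the same PEP4 site with the same bounds and 3268 RPM, its strongest in a 5' UTR. PEP4 held 4 more sites in Puf5, with 2143, 290, 211 and 110 RPM, against 356 RPM in its 3' UTR. CCW12 had 1673 RPM, ATP20, a subunit of the mitochondrial ATP synthase, 1352 RPM, UTH1, a cell wall protein of the SUN family, 758 RPM, and SPT7, a subunit of the SAGA transcription coactivator, 624 RPM. VAC8 (591 RPM), MRX8 (531 RPM), CTO1 (518 RPM), POL30 (513 RPM) and RPS30A (463 RPM) completed the 10 strongest genes. Over all 211 5' UTR sites of Puf5, these included, the median was 109 RPM and the quartiles were 72.9 and 138 RPM.

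No 5' UTR site of Puf6 passed 95.1 RPM. That site was in ALO1, an oxidase of the erythroascorbate pathway, and ranked 8 among the mRNA sites of the library. WHI3, an RNA-binding protein that restrains cell cycle entry, had 77.4 RPM, CTS1 68.8 RPM and the locus YBR277C 67.7 RPM. ERG20, farnesyl pyrophosphate synthase, and MNT3, a mannosyltransferase, each had 65.6 RPM. MCK1 (63.9 RPM), the glucan synthase gene GSC2 (62.7 RPM), ANP1 (60.1 RPM) and YPR127W (56.6 RPM) followed. Each of the 33 genes had 1 site, and for 30 of them it was the only mRNA site that Puf6 had in the gene.

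The distance to the start codon was measured from the centre of each site for the 449 sites whose gene has bounds in the RefSeq gene table. Puf1 sites lay nearest, with a median of 37.5 nt (95% interval 16.5 to 82, 44 sites). The median was 57.8 nt (31.5 to 85.5, 32 sites) in Puf6, 73.2 nt (50 to 110, 92 sites) in Puf2, 81 nt (51 to 156, 78 sites) in Puf4 and 99 nt (81 to 128, 203 sites) in Puf5. Neighbours in this order had overlapping intervals, and those of Puf1 and Puf5 overlapped by 1 nt. Within 50 nt of the start codon lay 56.8% of Puf1 sites, 43.8% in Puf6, 40.2% in Puf2, 37.2% in Puf4 and 30.0% in Puf5. Beyond 200 nt lay 6.82% of sites in Puf1 and 9.38% in Puf6, against 18.5% in Puf2, 25.6% in Puf4 and 24.6% in Puf5. Sites within 200 nt after the stop codon of another gene on the same strand were also commoner in Puf4 (16.0%) and Puf5 (14.7%). They made up 6.38% in Puf2, 6.06% in Puf6 and 2.22% in Puf1. Such sites may belong to the mRNA of that other gene, and they were not taken out of the distances.

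The most distant sites were in SUN4, a cell wall glucanase of the SUN family. Their centres lay 980 nt from the start codon in Puf4 and 977.5 nt in Puf2. Both sites begin 268 nt after the stop codon of RPL9B on the same strand, nearer to it than to the SUN4 start codon. Which mRNA they came from was not tested. SUN4 had 4 sites in Puf2 (725, 694, 682 and 617 RPM), 2 in Puf4 (863 and 732 RPM) and 2 in Puf5 (338 and 265 RPM), all with 3' ends 389 nt or more upstream. Next came the pheromone receptor gene STE3 in Puf5 at 781.5 nt, with 13.7 RPM. That site lies 81 nt after the stop codon of LST4 on the same strand, so the mRNAs of STE3 and LST4 cannot be told apart. STE3 is a gene of α cells, while these strains are of mating type a. Among the sites nearest to the start codon were those in TMA23 at 5 nt in Puf4 (115 RPM) and FBA1, the glycolytic aldolase, at 5.5 nt in Puf5 (114 RPM). Both sites run into the coding sequence.

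**Figure D2:**
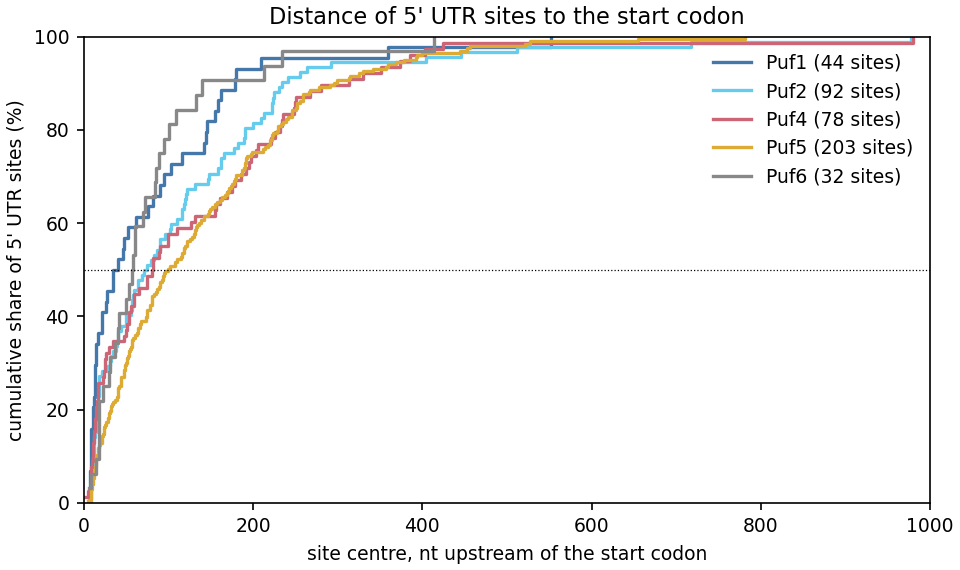
Cumulative share of 5' UTR sites (%) against the distance of the site centre from the start codon in nt, 1 line per library. The Puf1 line crosses the dotted 50% line at 37.5 nt and the Puf5 line at 99 nt.

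Many 5' UTR sites ended at the start codon itself. The 3' end of 59 of the 449 sites, 13.1% (10.2 to 16.6), fell between the first base of the start codon and the base after its G. This interval pools the 5 libraries and treats sites as independent. The 59 sites came from 44 genes, some called in several libraries, so it understates the uncertainty. All called mRNA sites, coding sites included, were then counted by where their 3' end fell, in windows of 4 nt. The start codon window held 59, against a median of 7 in the 25 windows over the 100 nt upstream (lowest 1, highest 23). In the 15 windows after the start codon the median was 10, the lowest 1 and the highest 18. These were not even. The windows from 4 to 23 nt into the coding sequence held 1, 1, 3, 3 and 5 sites. Those from 24 to 63 nt held 9 to 18 each. The commonest ends differed by strand, with 25 plus-strand sites ending 1 base past the first base of the codon and 11 minus-strand sites each at 2 and 3 bases past it. These positions are good to 1 nt. RNase T1, which cut the RNA in all 5 libraries, cleaves after G, and the start codon AUG ends in G. The part of RNase T1 in this pattern was not tested. Neither was that of the site caller or the UTR annotation, which are not given.

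Sites at the start codon made up 27.3% of the 5' UTR sites of Puf1 (15.0 to 42.8), 15.4% in Puf4 (8.21 to 25.3), 15.2% in Puf2 (8.58 to 24.2), 12.5% in Puf6 (3.51 to 29.0) and 8.37% in Puf5 (4.95 to 13.1). The interval of Puf1 lay above that of Puf5, and all other pairs overlapped. They held 35.3% of the 5' UTR RPM in Puf1, SOD1 and ENO2 among them, and 7.70% to 19.3% in the other libraries. Their median was 1795 RPM in Puf1, against 1649 RPM at other 5' UTR sites. In Puf4 it was 192 against 327 RPM, and in Puf6, with 4 such sites, 23.3 against 41.8 RPM. In Puf2 and Puf5 the medians lay closer, at 646 against 616 RPM and 107 against 109 RPM. They came from 44 genes, of which 8 were called there in more than 1 library. CCW12 was called in 4 (Puf1, Puf2, Puf4 and Puf5), from XII:370096 on the minus strand in each. ENO2 and HSP150, a cell wall protein, were called in Puf1, Puf2 and Puf4. PMA1 and ZEO1 were called there in Puf1, Puf2 and Puf5, and MFA2 in Puf1, Puf5 and Puf6. NTF2, a nuclear transport factor, was called in Puf1 (2733 RPM) and Puf4 (575 RPM). TEF2, which encodes elongation factor 1 alpha, was called in Puf2 (402 RPM) and Puf5 (347 RPM). TEF2 has a near-identical copy in TEF1, so its reads may be shared.

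**Figure D3:**
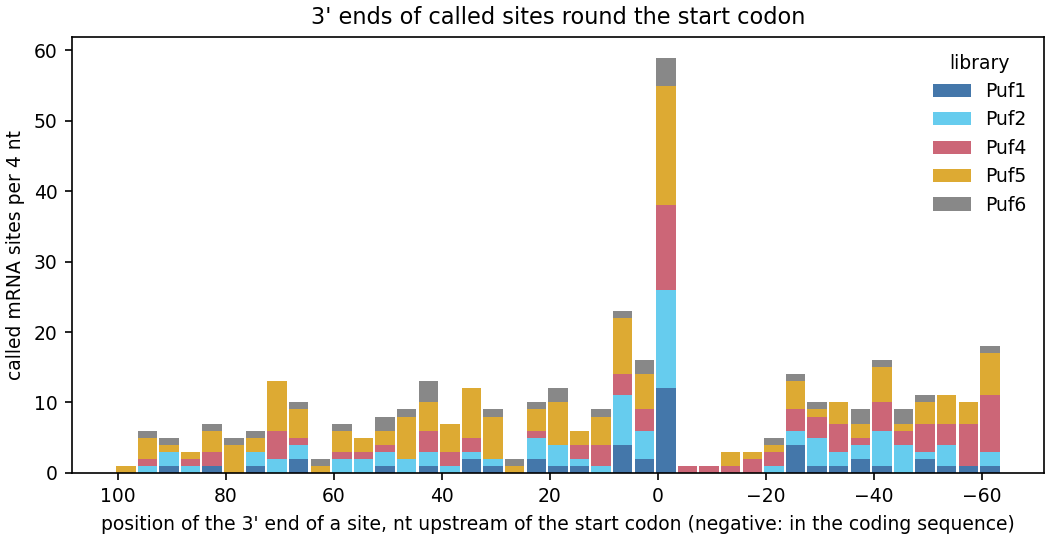
Number of called mRNA sites by the position of their 3' end, in windows of 4 nt from 100 nt upstream of the start codon to 63 nt into the coding sequence, stacked by library. The window over the start codon holds 59 sites, and the next highest holds 23.

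A 5' UTR site was found in 308 genes in all, and in 5.31% of the 5521 protein-coding genes with at least 1 RPKM. Of these, 252 were called in 1 library, 34 in 2, 17 in 3 and 5 in 4, and none in all 5. Puf2 was among the libraries of all 22 genes called in 3 or 4 of them, Puf5 of 19, Puf1 of 16, Puf4 of 10 and Puf6 of 4. Without Puf2, 5 genes were left with calls in at least 3 libraries. Without Puf5 there were 8, and without Puf1 there were 11. With the 50% of sites of highest RPM, 15 were left. Some of the counted calls were weak, such as MHF2 in Puf2 (3.81 RPM) and ZEO1 in Puf5 (11.3 RPM). The 5 genes called in 4 libraries were CTS1, CCW12, MFA2, NCE102 and YCR024C-B.

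CTS1 had 10 sites in 4 libraries. The site next to the start codon had 5781 RPM in Puf1, 3437 RPM in Puf2 and 276 RPM in Puf5. A second, at XII:710226-710253 on the minus strand, had equal bounds in both Puf1 (1480 RPM) and Puf2 (660.0 RPM), and in Puf6 a site with the same 3' end had 68.8 RPM. The first was thus 3.91 times as strong as the second in Puf1 and 5.21 times in Puf2, and only the second was called in Puf6. CCW12 had 1 site in each of its 4 libraries, and it ranked in the 3 strongest 5' UTR genes of Puf4 and Puf5 and in the 7 strongest of Puf1 and Puf2. NCE102, a protein of the eisosome membrane domains, had its strongest site at a different place in each library. It was at the start codon in Puf1 (1954 RPM), 121 nt upstream by its 3' end in Puf2 (970.5 RPM), 156 nt upstream in Puf4 (128 RPM) and 29 nt upstream in Puf5 (120 RPM). The Puf2 site was also called in Puf5, with the same 3' end and 84.0 RPM.

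MFA2 is expressed in a cells and encodes the a-factor pheromone. Its sites overlapped in 4 libraries. Puf2 had 1987 RPM and Puf1 1082 RPM there, followed by Puf5 with 225 RPM and Puf6 with 25.7 RPM. The mRNA-seq strain BY4742 is an α strain, and there MFA2 had 1.11 RPKM, so that table does not give the level of MFA2 in the CLIP strains. The STE3 level in it was 261 RPKM.

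**Figure D4:**
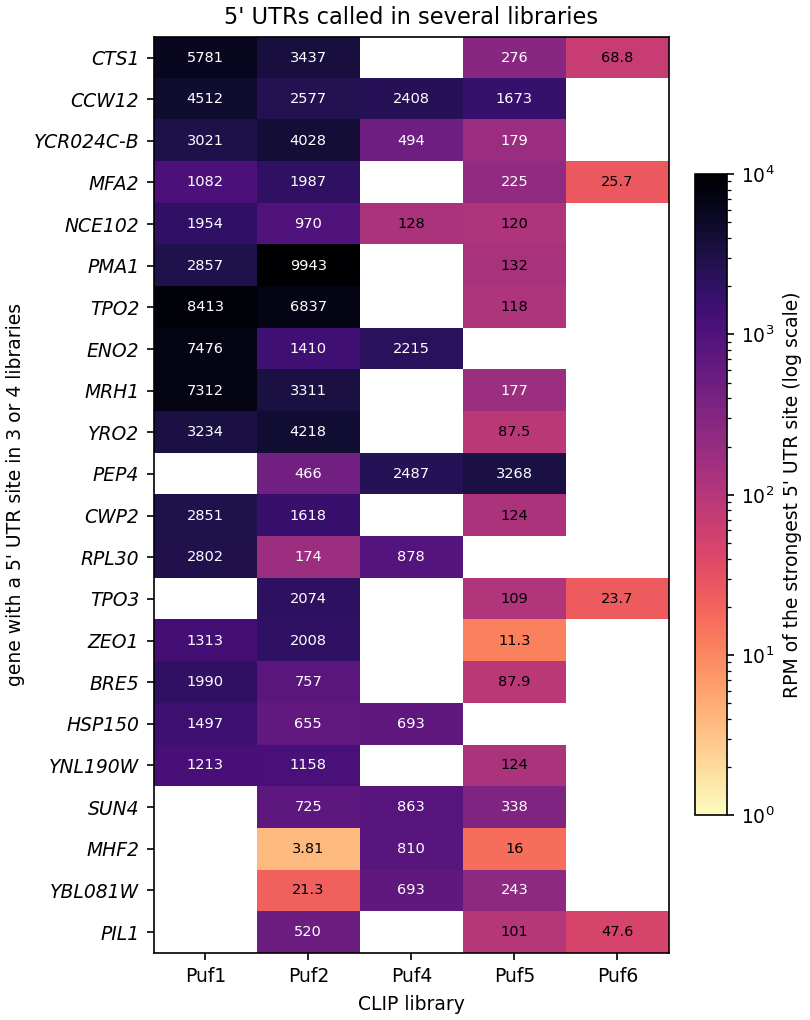
RPM of the strongest 5' UTR site (colour on a log scale, values printed) for the 22 genes called in 3 or 4 libraries; white cells had no called 5' UTR site. Every gene has a value in Puf2, and PEP4, SUN4, TPO3, PIL1, MHF2 and YBL081W have none in Puf1.

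Several 5' UTRs carried a row of sites. TPO2 had 12 sites in 3 libraries, at 66 to 266 nt upstream. The site at VII:765713-765730 on the minus strand had equal bounds in Puf1 (2791 RPM), Puf2 (2921 RPM) and Puf5 (118 RPM). The strongest site differed, at 132 to 160 nt upstream in Puf1 and 171 to 193 nt in Puf2. At 166 to 193 nt, next to its strongest site, Puf1 had 2.18 RPM. At 136 to 160 nt Puf2 had 612 RPM. PMA1 showed such an order too, with 2857 RPM at 133 to 155 nt in Puf1 and 9943 RPM at 152 to 172 nt in Puf2. In YRO2, the 102 to 136 nt stretch with 4218 RPM in Puf2 had no site in Puf1, where the strongest lay at 166 to 191 nt. In PEP4, Puf4 and Puf5 shared the bounds of 2 sites, with 3' ends at 96 nt (2487 and 3268 RPM) and at 183 nt (229 and 2143 RPM). The first was thus 10.9 times as strong as the second in Puf4 and 1.53 times in Puf5. No replicate shows how far such ratios vary between libraries of 1 protein.

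**Figure D5:**
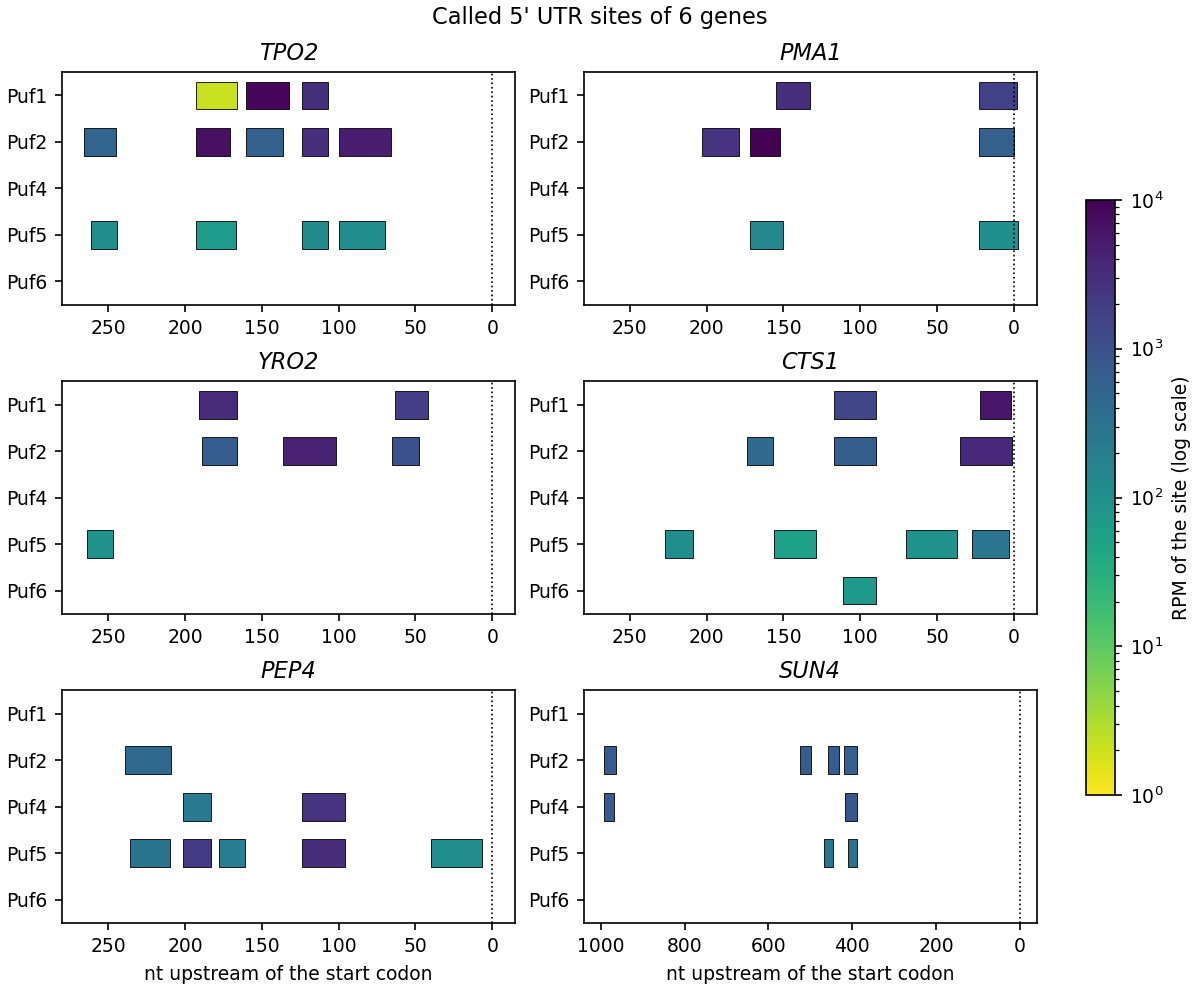
Called 5' UTR sites of TPO2, PMA1, YRO2, CTS1, PEP4 and SUN4 as boxes by library, against nt upstream of the start codon (dotted line), with colour giving RPM on a log scale. TPO2 sites of Puf1, Puf2 and Puf5 line up between 66 and 266 nt, and those of SUN4 lie 389 nt or more from the start codon.

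For pairs of libraries, the genes with a 5' UTR site in both were counted. Puf2 and Puf5 shared the most, 31, which were 41.3% of the Puf2 genes and 18.2% of the Puf5 genes. Puf1 shared 17 genes with Puf2, 45.9% of its own and 22.7% of those of Puf2. Puf1 also shared 17 with Puf5 (45.9% and 10.0%). Puf4 and Puf5 shared 15 (19.7% and 8.82%), Puf2 and Puf4 shared 13 (17.3% and 17.1%), and Puf1 and Puf4 shared 7 (18.9% and 9.21%). Of the 33 Puf6 genes, 9 were shared with Puf5 (27.3%), 4 with Puf2 (12.1%), 2 with Puf1 (6.06%) and none with Puf4. For scale, 1.32% of 5521 protein-coding genes with at least 1 RPKM had a 5' UTR site in Puf2, 2.92% in Puf5, 1.29% in Puf4, 0.652% in Puf1 and 0.561% in Puf6. Genes with a site had higher median mRNA levels than all genes in each library, and level was not taken out of the shared counts.

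By the counts and with no test, sites in 5' UTRs of Puf1 and Puf2 overlapped an mRNA site of another library more often than mRNA sites of these libraries as a whole. In Puf1, 25 of 45 sites did, 55.6% with an upper bound of 70.4% and a lower bound just above the 39.1% of all mRNA sites. In Puf2 it was 45.7% (35.4 to 56.3) against 32.8%. The shares were 27.2% (17.9 to 38.2) against 20.8% in Puf4, 20.9% (15.6 to 27.0) against 20.8% in Puf5, and 15.2% (5.11 to 31.9) against 24.0% in Puf6. In Puf1 and Puf2 the interval thus lay above the share of all mRNA sites, and in the other libraries it held that share. The share of all mRNA sites has its own interval, 34.5 to 43.8 in Puf1 and 29.9 to 35.7 in Puf2. Both overlapped the 5' UTR interval. Sites in 3' UTRs had the higher share in each library. It was 56.7% in Puf1, which lies within the 5' UTR interval. It lay above that interval in the other 4 libraries, with 59.5% for Puf2 and 44.8% for Puf4, then 27.3% in Puf5 and 47.7% in Puf6. Coding sites had lower shares than 5' UTR sites in Puf1, Puf2, Puf4 and Puf5, at 8.89% to 17.9%, and a higher one in Puf6, at 18.7%. Of the 98 overlapping pairs of 5' UTR sites, 20 had both bounds in common, 43 the 3' end and 42 the 5' end. All lysates were cut by RNase T1, and its part in shared ends was not tested.

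Genes with a 5' UTR site were less often bound in that class alone than genes with a 3' UTR or coding site in Puf1, Puf2, Puf4 and Puf5, by the counts and with no test. The 5' UTR was the only bound class in 20 of 37 genes of Puf1 (54.1%), against 80.9% for 3' UTR and 84.4% for coding sites. It was so in 43 of 75 genes of Puf2 (57.3%, against 68.7% and 81.1%) and 45 of 76 of Puf4 (59.2%, against 64.3% and 76.8%). In Puf5 it was 96 of 170 (56.5%, against 74.5% and 60.9%). In Puf6 it was 30 of 33 (90.9%), between 83.1% for 3' UTR and 94.4% for coding sites. The 5' UTR was the class with the fewest genes in each library. In Puf1 it had 37, against 157 with a 3' UTR site and 179 with a coding site. Genes of a smaller class have more calls of other classes to coincide with. The share expected from class size and mRNA level was not computed, so these shares cannot be read as a trait of 5' UTR sites. Where the gene had another mRNA site, the 5' UTR held the strongest in 10 of 17 genes in Puf1, 18 of 32 in Puf2, 15 of 31 in Puf4, 17 of 74 in Puf5 and 2 of 3 in Puf6. The same share for genes with a 3' UTR site and a site of another class was 80.0% in Puf1 and 70.7% in Puf2. It was 79.3% in Puf4, 75.8% in Puf5 and 42.9% in Puf6, where there were 14 such genes. Examples with a stronger 5' UTR were TPO2 in Puf1 (8413 RPM against 85.0 RPM in coding sequence), ENO2 in Puf1 (7476 against 364 RPM), PEP4 in Puf5 (3268 against 356 RPM in the 3' UTR) and CCW12 in Puf4 (2408 against 583 RPM in the 3' UTR). Genes with the opposite order were PMA1 in Puf1 (2857 against 28212 RPM in the 3' UTR), CWP2 in Puf1 (2851 against 10679 RPM) and TOS1 in Puf5 (129 against 5471 RPM).

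The gene name in the lists did not always fix the mRNA. The YCR024C-B site of Puf1 and Puf2, at III:163065-163085 on the minus strand, ends 200 nt before the YCR024C-B start codon, and its 3' end falls in the start codon of PMP1. PMP1 encodes a small proteolipid that regulates the proton pump Pma1. The strongest YCR024C-B sites of Puf4 (494 RPM) and Puf5 (179 RPM) ended 20 and 22 nt before the PMP1 start codon. A Puf2 site listed under YDR133C (775 RPM) ended at the start codon of CCW22, and a Puf5 site listed under MTC7 (72.7 RPM) at that of HYP2, the translation factor eIF5A. A site listed under YBR191W-A in Puf1 (1532 RPM) and Puf2 (586 RPM), at II:607127-607147, overlapped the ribosomal protein gene RPL21A. Of the 464 sites, 53 lay within 200 nt after the stop codon of another gene on the same strand, where the 3' UTR of that gene can reach. These were 31 in Puf5, 13 in Puf4, 6 in Puf2, 2 in Puf6 and 1 in Puf1. The Puf1 site was the PMA1 site with 2857 RPM, 120 nt after the stop codon of YGL007C-A. In Puf2 the PMA1 sites with 9943 and 2545 RPM lay 103 and 72 nt after it. MRX8 in Puf5 lay 70 nt after the stop codon of MSN5, and POL30 in Puf5 lay 138 nt after that of NHP6B. MSO1 in Puf4 lay 70 nt after the stop codon of LYS9, and ATP20 in Puf5 lay 85 nt after that of MCM4. YDR338C lay 47 nt after FCF1 and AIM33 lay 81 nt after ALO1, both in Puf4. For such sites the mRNAs of the neighbouring genes cannot be told apart here.

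Genes with a 5' UTR site had higher median mRNA levels than all genes. Their median was 589 RPKM in Puf1, 244 in Puf2, 153 in Puf5, 153 in Puf6 and 133 in Puf4, against 60.4 RPKM over the 5521 background genes. On the log2(RPKM + 1) scale the Puf1 median was 9.21 (95% interval 7.66 to 10.4, 36 genes), against 8.29 (7.77 to 8.73, 285 genes) for genes with other Puf1 mRNA sites alone. The Puf5 median was 7.27 (6.70 to 7.70), against 6.75 (6.64 to 6.88). Both pairs of intervals overlapped, as did those of Puf2 (7.93 and 7.85), Puf4 (7.06 and 7.34) and Puf6 (7.26 and 7.39). Among genes with strong sites, TPO2 had 155 RPKM and TPO3 103 RPKM. MSO1 had 34.8 RPKM and AIM33 11.1 RPKM, but their sites lie shortly after the stop codons of LYS9 and ALO1, so these levels may not be those of the bound mRNA.

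Gene groups were counted by how many of their members with at least 1 RPKM had a 5' UTR site. Members of a group are named in order of RPM over all libraries. RPM has no common scale across libraries, so this order does not rank sites of different libraries. Over all libraries, 5.31% of background genes had one. Cell wall genes numbered 15 of 62 (24.2%). By library there were 10 in Puf5 (16.1%, against 2.92% of background genes) and 8 in Puf2 (12.9%, against 1.32%). There were 5 in Puf4 (8.06%, against 1.29%), 4 in Puf1 (6.45%, against 0.652%) and 4 in Puf6 (6.45%, against 0.561%). Beside CTS1, CCW12, HSP150 and SUN4 the cell wall genes included CWP2, a mannoprotein, at 2851 RPM in Puf1 and 1618 RPM in Puf2. UTH1 had 3 sites in Puf2, the strongest with 739 RPM. In Puf5, ECM33 had 309 RPM. Of eisosome and small membrane protein genes, 5 of 21 had a 5' UTR site (MRH1, YRO2, NCE102, PIL1 and EIS1). PIL1, a core eisosome protein, had 520 RPM in Puf2, 101 RPM in Puf5 and 47.6 RPM in Puf6, with the same 5' end in all 3. Plasma membrane transporters numbered 10 of 70 (14.3%), of which 7 were in Puf5 (10.0%, against 2.92% of background genes). PMA1, TPO2, TPO3 and the iron transporter gene FET4 (1168 RPM in Puf1) had the highest RPM. The FET4 site ranked 36 among the 45 5' UTR sites of Puf1.

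Of 138 cytosolic ribosomal protein genes, 14 had a 5' UTR site in some library (10.1%, against 5.31% of background genes) and 133 an mRNA site of any class. By library, 6 had a 5' UTR site in Puf4 (4.35%, against 1.29% of background genes) and 114 an mRNA site. The counts were 5 (3.62%, against 2.92%) and 106 in Puf5, and 3 (2.17%, against 1.32%) and 86 in Puf2. They were 4 (2.90%, against 0.652%) and 55 in Puf1, and 0 (against 0.561%) and 39 in Puf6. Over all genes this mRNA count was 1118 in Puf4, 1439 in Puf5, 681 in Puf2, 334 in Puf1 and 372 in Puf6. The share of background genes with an mRNA site of any class was not counted, so the mRNA counts have no base here. RPL30, whose protein is known to bind its own transcript, had the highest RPM. Its site in Puf1 (2802 RPM) and Puf2 (174 RPM) ended 7 nt before the start codon. The Puf4 site (878 RPM) was a different one, ending 54 nt before the start codon. RPS2 (1406 RPM in Puf1) and RPS30A (626 RPM in Puf1 and 463 RPM in Puf5) were next, and RPL41A had 498 RPM in Puf4.

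Glycolysis and fermentation genes numbered 9 of 25 (36.0%). Beside ENO2, the pyruvate kinase gene PYK2 had 759 RPM in Puf4, TDH1, a glyceraldehyde-3-phosphate dehydrogenase, 521 RPM in Puf2, and PGI1, phosphoglucose isomerase, 123 RPM in Puf5. TDH3 had 44.1 RPM in its 5' UTR in Puf4, against 49293 RPM in its 3' UTR. Histone genes numbered 4 of 10, with HTB1 at 729 RPM in Puf4, HTA1 at 265 RPM, HHT1 at 229 RPM and HTB2 at 121 RPM in Puf5. Stress and redox genes numbered 5 of 46, and SOD1 led them. TRX2 (thioredoxin, 696 RPM), the Hsp40 chaperone gene SIS1 (660 RPM) and the polyubiquitin gene UBI4 (614 RPM) followed, all in Puf2. Genes of oxidative phosphorylation numbered 6 of 39, among them ATP1 (301 RPM in Puf2) and COX9 (159 RPM in Puf4). COX7 had 1442 RPM in Puf1, at rank 30 of the 45 5' UTR sites of that library. ATP20, by its listed name, had 1352 RPM in Puf5, at rank 4 of 211. That site lies 85 nt after the stop codon of MCM4, so the mRNAs of ATP20 and MCM4 cannot be told apart. Translation factor genes numbered 7 of 41, with SUI2, an eIF2 subunit, at 692 RPM and PAB1, the poly(A) binding protein, at 663 RPM in Puf2. TEF2 and the eIF4A gene TIF1 (346 RPM in Puf4) were next. Reads of close gene copies such as histone, RPL41, RPS30 and TIF1 pairs may be shared. Of 26 genes with regulatory upstream open reading frames, 1 had a 5' UTR site, PET111 (126 RPM in Puf5). That was 3.85%, against 5.31% of background genes. An mRNA site of any class was called in 17 of the 26 genes, a count with no background share beside it. Mating genes numbered 2 of 15 (MFA2 and, by its listed name, STE3), and of 7 Puf family genes PUF4 was the only one. Differences in mRNA level between lists were not taken out of these counts.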

How the data were processed

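The authors deposited 1 list of called CLIP sites per library, giving each site a position, a gene, a class and an RPM value (its reads scaled to library depth), per the file headers. The submitters' processing notes name CASAVA 1.8.2, Bowtie 0.12.7 and sacCer3. The site caller, its threshold, the UTR annotation, the RPM divisor, the treatment of reads with several matches and whether positions count from 0 or 1 are each not given in the sources used here. Read totals were not used here, so RPM has no counting interval. The mRNA-seq values are 1 RPKM column deposited by the authors for 2 samples.

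Gene bounds and symbols came from the RefSeq gene table of assembly R64, the same build, where a gene starts at its start codon. Of 464 sites, 449 matched; 15 sites carry names with no bounds there. The strand came from the locus name. A further row classed as 5' UTR intron, in Puf6, was left out. Shares have exact Clopper-Pearson 95% intervals and medians have 95% intervals from order statistics, which cover sites of 1 library alone. The exception is the start codon share of the 449 sites, which pools the 5 libraries. Overlap needed at least 1 nt on the same strand. Background genes were protein-coding with at least 1 RPKM. Distances and overlaps were tested on simulated sites. Python 3.11.15, pandas 2.3.3 and SciPy 1.17.1 were used. Genes named are the 10 strongest of each library, those in 4 libraries, the 10 strongest of those in 3, up to 4 per gene list, and the extremes of distance, of which 1 gene is not reported here; other genes were chosen after their values were seen. Members and lists were chosen with earlier results of these data known. A planned motif count was not run, since no sequence was used here.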

Additional observations from a re-analysis of the deposited data

How the results depend on the processing

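Of 100 alternative values for 38 results, 79 stayed within the interval of the reported value (or within 1.5 times it for counts and RPM shares) and 21 moved. With the 50% of sites of highest RPM, the 5' UTR share of sites was 9.13% in Puf1, 8.32% in Puf2, 4.53% in Puf4 and 3.65% in Puf6, and 97 genes in place of 170 had a 5' UTR site in Puf5. Among mRNA sites alone the share of sites was 10.3%, 9.11%, 4.52%, 9.32% and 7.53% in Puf1, Puf2, Puf4, Puf5 and Puf6, and the RPM share was 17.9% in Puf2 and 3.15% in Puf6. With repeat copies counted once the share of sites was 8.08%, 7.77%, 4.04%, 7.98% and 4.18%; these 2 settings remove other sites from the base. Genes in at least 2 libraries fell from 56 to 27 without Puf5, and genes in at least 3 from 22 to 11 without Puf1, 5 without Puf2 and 8 without Puf5. With the 50% of sites of highest RPM these counts were 40 and 15, which stayed within 1.5 times. Sites at the start codon numbered 59, and 47 with the commonest ends alone. Leaving out single libraries other than Puf6, the start codon settings and medians without start codon sites were added after the data were seen. The planned motif search was not run. No paired analysis was possible because each protein had 1 library and the 2 mRNA-seq samples share 1 column. Without read counts, no floor or interval of an RPM value could be set.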
